A study of Homo sapiens with 2 samples.

Results

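The genes described here are 40 genes of glycolysis, glucose and lactate transport, and the response to low oxygen, picked by symbol from the 20263 genes of each deposited table. All 40 were found, and 38 reached at least 1 CPM, a count scaled to library size, in at least 1 library. The exceptions were SLC2A3, with 0 counts in both libraries, and CA12, with 12 counts in the library labelled HIPK2 shRNA and 6 in the control. RNA was sequenced from Cal-27, an established line of human tongue squamous carcinoma cells. The cells labelled HIPK2 shRNA carried a stably transduced shRNA against HIPK2 in the GV-248 construct, and the control cells a scrambled shRNA (sh-scramble). Both grew in DMEM with fetal bovine serum, and the labels name no hypoxic treatment. The sources used here do not give whether a culture was a pool or a clone, nor how many shRNA sequences it held. With 1 library in each group there is no replicate check and no p-value, and each difference is one between libraries, not between conditions. Values in brackets after a ratio or level are 95% exact intervals that cover counting error only.

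Glycolysis splits glucose into pyruvate, and lactate dehydrogenase turns pyruvate into lactate, which monocarboxylate transporters carry out of the cell. Hypoxia-inducible factors (HIFs) are pairs of an oxygen-regulated alpha subunit, such as HIF1A or EPAS1, and the stable partner ARNT. With oxygen present, the EGLN hydroxylases mark the alpha subunit and VHL directs its destruction. Without oxygen the factor binds the core motif ACGTG and raises glycolytic enzymes, the glucose transporter SLC2A1, and genes such as CA9, BNIP3 and ADM. HIPK2, a nuclear serine/threonine kinase, has been described as a co-repressor of HIF1A in other carcinoma cells. Squamous carcinomas of the mouth are known for high glucose uptake and lactate output.

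Promoter sequence is shown for the 2 members with the highest CPM ratio (ENO2 and ALDOC), for the 3 with the lowest (P4HA2, PFKFB3 and LDHB), and for CA9, a textbook HIF target. Each run is the 250 bases before the RefSeq start on GRCh38.p14, 5′ to 3′ on the gene's strand. Capitals mark ACGTG or its reverse complement CACGT, which overlap where they form CACGTG, the E-box.
ENO2: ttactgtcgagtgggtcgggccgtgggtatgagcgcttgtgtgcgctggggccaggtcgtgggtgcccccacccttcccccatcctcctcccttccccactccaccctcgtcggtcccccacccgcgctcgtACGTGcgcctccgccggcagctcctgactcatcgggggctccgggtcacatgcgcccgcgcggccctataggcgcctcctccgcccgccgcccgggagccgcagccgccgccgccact
ALDOC: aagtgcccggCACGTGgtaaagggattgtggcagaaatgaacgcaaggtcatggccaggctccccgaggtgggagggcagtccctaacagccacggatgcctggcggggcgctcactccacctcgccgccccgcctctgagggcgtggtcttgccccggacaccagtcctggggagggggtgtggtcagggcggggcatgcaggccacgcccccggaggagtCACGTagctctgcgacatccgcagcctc
CA9: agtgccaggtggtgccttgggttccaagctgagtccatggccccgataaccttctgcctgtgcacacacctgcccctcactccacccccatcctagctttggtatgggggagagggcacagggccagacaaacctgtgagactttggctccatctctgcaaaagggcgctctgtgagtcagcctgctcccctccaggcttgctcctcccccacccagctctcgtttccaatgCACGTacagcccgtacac
P4HA2: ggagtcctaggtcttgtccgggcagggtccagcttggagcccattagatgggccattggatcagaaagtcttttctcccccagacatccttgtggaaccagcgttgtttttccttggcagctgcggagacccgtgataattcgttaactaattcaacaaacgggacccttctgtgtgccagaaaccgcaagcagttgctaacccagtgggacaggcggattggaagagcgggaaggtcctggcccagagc
PFKFB3, upstream start: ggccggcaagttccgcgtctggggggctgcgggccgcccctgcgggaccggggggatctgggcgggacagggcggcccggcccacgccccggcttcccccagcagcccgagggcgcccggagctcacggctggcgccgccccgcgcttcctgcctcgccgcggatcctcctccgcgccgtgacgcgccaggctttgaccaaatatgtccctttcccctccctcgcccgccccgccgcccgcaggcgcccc
PFKFB3, downstream start: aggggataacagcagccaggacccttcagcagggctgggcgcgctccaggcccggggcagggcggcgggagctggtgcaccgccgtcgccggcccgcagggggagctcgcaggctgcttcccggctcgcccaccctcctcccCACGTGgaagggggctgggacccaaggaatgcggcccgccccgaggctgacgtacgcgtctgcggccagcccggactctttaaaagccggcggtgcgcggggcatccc
LDHB: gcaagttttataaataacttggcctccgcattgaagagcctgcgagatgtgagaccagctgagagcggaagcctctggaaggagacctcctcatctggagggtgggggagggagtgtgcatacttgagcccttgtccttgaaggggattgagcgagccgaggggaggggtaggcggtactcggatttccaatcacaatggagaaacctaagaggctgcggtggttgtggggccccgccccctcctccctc
These windows lie at chr12:6914330-6914579 on the plus strand for ENO2, chr17:28576896-28577145 on the minus strand for ALDOC and chr9:35673678-35673927 on the plus strand for CA9. Those of P4HA2 and LDHB lie at chr5:132227092-132227341 and chr12:21657843-21658092, both on the minus strand. PFKFB3 has 2 starts in RefSeq, with windows at chr10:6144671-6144920 and chr10:6202682-6202931 on the plus strand. ENO2 and CA9 held 1 match each and ALDOC held 3, of which 2 overlap in 1 E-box, and the downstream PFKFB3 window held 2, overlapping in 1 E-box. These letters were not in the upstream PFKFB3 window or in those of P4HA2 and LDHB. Among these 3 lowest CPM ratios, only PFKFB3 had the motif in a window, and its TPM ratio was 1.03. P4HA2 and LDHB had 1 window each, inside the gene as deposited. Their deposited upstream ends, 132295271 and 21757857, were not searched. Windows were used for 35 members (not NDRG1, BNIP3L, VHL, SLC2A3 and SLC16A1), and 20 of them (57.1%) had the motif in at least 1 window, against 21.7% of all 27305 genes with a window. Counted by window, some of which overlap within a gene, the shares were 37.1% of 62 member windows and 18.5% of all 35116. Many members were listed because they are known HIF targets, so this share describes the list. The 20 members with the motif had a median log2 ratio of 0.017 (range -0.79 to 0.95). The 14 expressed members without it had a median of -0.076 (range -0.86 to 0.40), and the 2 ranges overlap over most of their length.

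The library labelled HIPK2 shRNA had 26450251 counts and the control 28064923. HIPK2 itself had 218 counts in the library labelled HIPK2 shRNA and 110 in the control (8.06 and 4.01 CPM, a ratio of 2.01 with an interval of 1.59 to 2.55), while its deposited TPM was 0.873 and 1.63. The targeted gene was thus higher in counts and lower in TPM, and a decrease was not established. All 10 squamous epithelial markers were expressed, with summed levels of 4106 and 4834 CPM, most of it KRT5 and SFN. Of these markers, KRT14 (44 and 318 counts, log2 ratio -2.26) and CDH1 (87.3 and 184 CPM, log2 ratio -1.07) were past 2-fold lower in CPM. In TPM their log2 ratios were -2.13 and -0.80, so CDH1 was within 2-fold. The part of these 2 genes in the results was not tested. The leukocyte markers PTPRC, CD3E and CD79A and the endothelial marker PECAM1 had 0 counts in both libraries. Summed levels were 21.5 and 18.2 CPM for 6 fibroblast markers and 3.25 and 5.10 CPM for 5 leukocyte markers. The 3 endothelial markers summed to 28.5 and 56.1 CPM, of which CDH5 gave 27.3 and 55.2 CPM, and the part of other cell types in the results was not tested.

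None of the 38 expressed members passed 2-fold in either direction in the library labelled HIPK2 shRNA, on the scale log2 of (CPM + 1) with TMM scaling. Among all 11813 expressed genes, 3.26% passed 2-fold higher and 2.87% lower. At 1.5-fold in CPM, 4 members were higher (ALDOC, ENO2, PDK1 and BNIP3L) and 4 lower (LDHB, PFKFB3, NDRG1 and P4HA2), of which PDK1 and PFKFB3 had the opposite sign in TPM. BNIP3 lay at the limit, with a CPM ratio of 0.664 without pseudocount and a log2 ratio of -0.58 with it, and is not counted. Each set is 10.5% of the expressed members, against 10.6% and 9.96% of all expressed genes, so these shares are near the background. In either direction the 8 genes are 21.1% of the expressed members, against 20.6% of all expressed genes. In TPM with a pseudocount of 1 TPM, only ALDOC passed 2-fold, at a log2 ratio of 1.003, and ENO2 was at 0.998. Without pseudocount the TPM ratio was 2.06 for both genes. On the scale with it, 2.69% of expressed genes were past 2-fold on the higher side and 2.21% on the lower (4.9% in all). The median log2 ratio of the members was -0.030, against 0.00023 over all expressed genes. The list divided almost evenly, with 18 members above 0 (47.4%, against 50% of all expressed genes) and 20 below. Counting error was small for the abundant transcripts of the list. The interval of the CPM ratio was clear of 1 for 32 of the 38 members, and the same share over all expressed genes is not given here. That interval holds no spread between cultures, so it does not show that the groups differ. In a culture of many cells, fewer cells expressing a gene and less RNA per cell cannot be told apart.

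**Figure D1:**
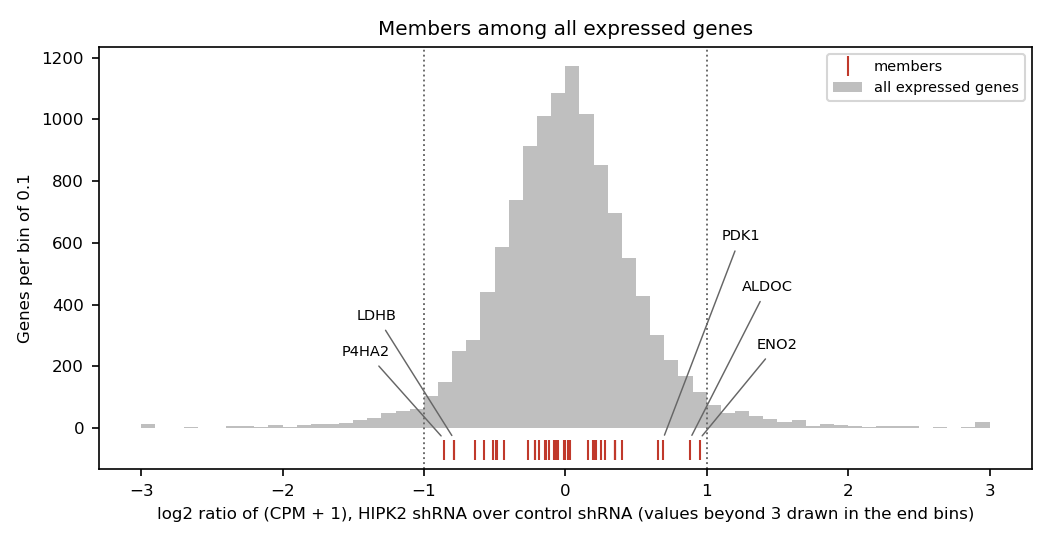
Histogram of the log2 ratio of (CPM + 1), library labelled HIPK2 shRNA over control, for the 11813 expressed genes in bins of 0.1 (grey), with the 38 expressed members as red ticks below and dotted lines at 2-fold. All member ticks lie between -0.86 (P4HA2) and 0.95 (ENO2), inside the dotted lines.

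Several glycolytic enzymes were among the most abundant transcripts, and of the 15 only ENO2 and ALDOC passed 1.5-fold. Both were higher, 13.3% of the 15, against 10.6% of all expressed genes on that side and 9.96% on the lower. The 15 enzymes and both lactate dehydrogenases together took 4.25% of all counts (4.24 to 4.25) in the library labelled HIPK2 shRNA and 3.86% (3.85 to 3.87) in the control. GAPDH, which oxidizes glyceraldehyde 3-phosphate, alone took 1.51% and 1.25%. On the length-corrected TPM scale GAPDH was at 13284 TPM in the library labelled HIPK2 shRNA and 10937 TPM in the control, rank 6 of all genes in both. ENO1, the main enolase, followed at 7629 and 7021 TPM, and PKM, the last enzyme of the pathway, at 4305 and 4042 TPM. TPI1, the triose isomerase, had 3497 and 3416 TPM, and ALDOA, the main aldolase, 2810 and 2170 TPM. The order of these 5 genes was the same in both libraries. Their CPM ratios were 1.16 (1.15 to 1.16) for GAPDH, 1.01 (1.01 to 1.02) for ENO1, 0.994 (0.987 to 1.001) for PKM, 0.955 (0.945 to 0.964) for TPI1 and 1.21 (1.20 to 1.23) for ALDOA. PKM and TPI1, whose CPM ratios lie under 1, had TPM ratios of 1.07 and 1.02.

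**Figure D2:**
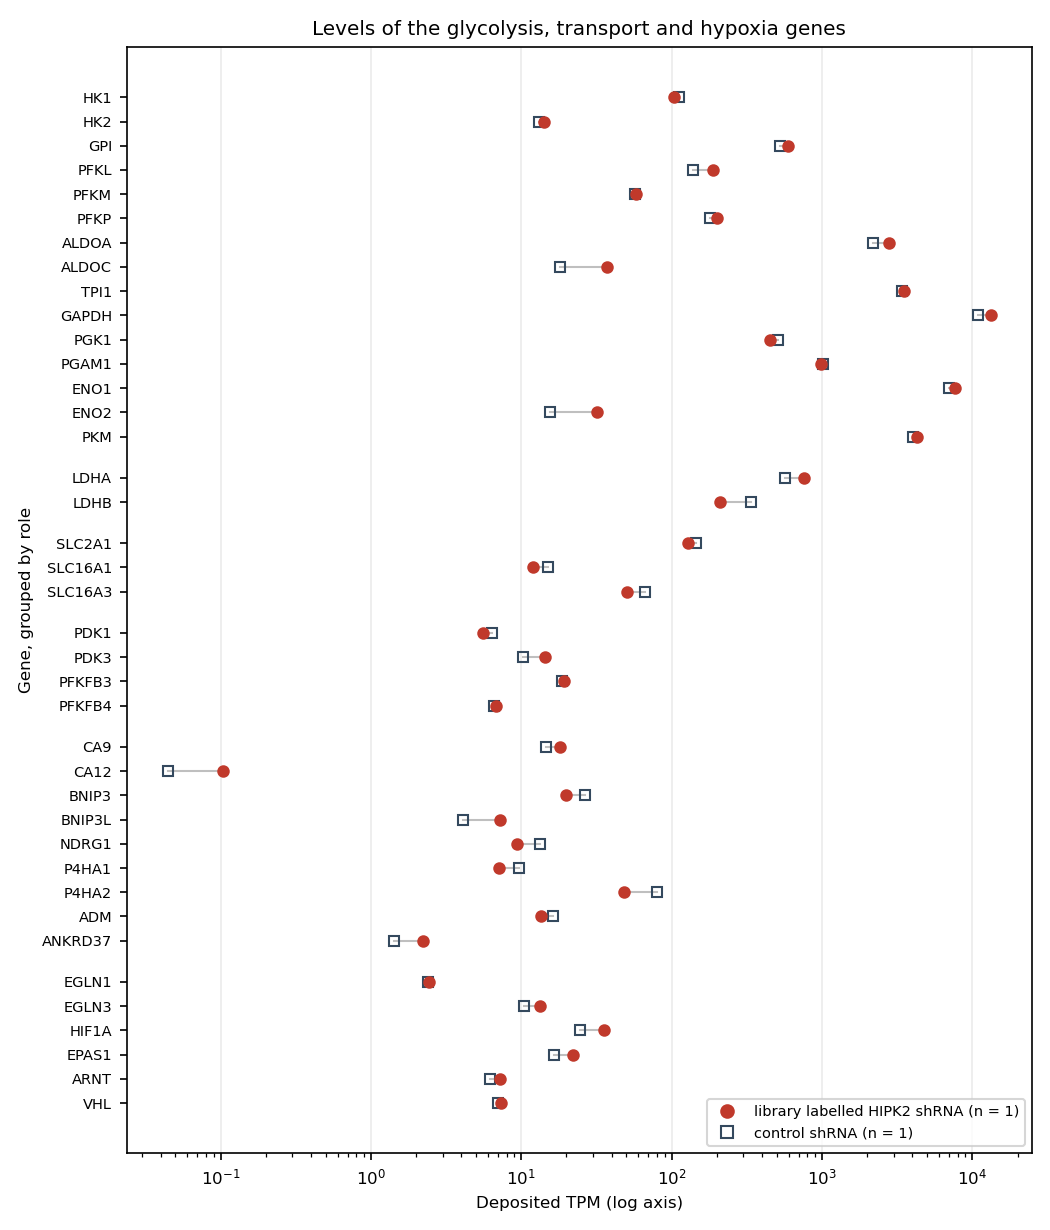
Deposited TPM (log axis) of the 39 members with counts, grouped by role, in the library labelled HIPK2 shRNA (filled red circles) and the control (open squares), 1 library each. Levels run from 0.103 and 0.0446 TPM for CA12 to 13284 and 10937 TPM for GAPDH, and ENO2 and ALDOC show the widest gaps among the glycolytic enzymes.

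The steps before aldolase were at lower levels than these 5 genes. Hexokinase, which traps glucose in the cell, was mainly HK1, with 104 TPM in the library labelled HIPK2 shRNA and 113 TPM in the control. HK2, the HIF-induced and tumour-associated form, had 14.1 and 13.2 TPM, so it made up 12.0% and 10.5% of the hexokinase TPM. HK2 had 1471 and 1491 counts, a CPM ratio of 1.0002 (0.930 to 1.08). GPI, the isomerase that follows, had 592 and 527 TPM, with a CPM ratio of 1.02 (1.01 to 1.04). Phosphofructokinase, the committed step, came from 3 genes. PFKP had 201 TPM in the library labelled HIPK2 shRNA and 181 TPM in the control, PFKL 190 and 140 TPM, and PFKM 57.9 and 57.4 TPM. The liver-type gene PFKL had a CPM ratio of 1.27 (1.24 to 1.31), while PFKP was at 0.922 (0.894 to 0.951) and PFKM at 0.910 (0.865 to 0.958). In TPM all 3 ratios were above 1, and PFKL made up 42.3% and 36.9% of the phosphofructokinase TPM. In the second part of the pathway, PGK1 had 454 and 508 TPM with a CPM ratio of 0.834 (0.823 to 0.845), and PGAM1 983 and 1012 TPM with a CPM ratio of 0.906 (0.892 to 0.919).

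The widest differences among the 15 glycolytic enzymes were in minor forms of an enzyme. ENO2 (ENSG00000111674, chromosome 12, 6913745 to 6923698, plus strand, GRCh38), the neuronal enolase, had 1423 counts in the library labelled HIPK2 shRNA and 734 in the control. This gave 52.6 CPM (49.9 to 55.4) against 26.8 CPM (24.9 to 28.8), with a CPM ratio of 1.97 (1.80 to 2.15). ALDOC (ENSG00000109107, chromosome 17, 28573115 to 28577264, minus strand), the brain aldolase, had 1124 and 606 counts. It stood at 41.5 CPM (39.1 to 44.0) against 22.1 CPM (20.4 to 23.9), with a CPM ratio of 1.88 (1.70 to 2.08). Both genes are close to the 2-fold limit, and the side on which they fall depends on the unit, scaling and pseudocount. The log2 ratio of ENO2 was 0.95 with TMM, 1.01 with total counts and 0.998 in TPM. That of ALDOC was 0.88 in CPM and 1.003 in TPM, just past the limit. Without pseudocount the TPM ratio of both genes was 2.06. The major forms stayed dominant, since ENO2 made up 0.416% and 0.220% of the enolase TPM and ALDOC 1.30% and 0.823% of the aldolase TPM. On chromosome 12, ENO2 lies 42796 bases from TPI1, and TPI1 lies 328744 bases from GAPDH. The CPM ratios of these neighbours were 1.97, 0.955 and 1.16, so they did not share a ratio.

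The lactate dehydrogenases lay on opposite sides of a ratio of 1 in both units. LDHA, the muscle-type subunit associated with lactate output, had 20649 counts in the library labelled HIPK2 shRNA and 17999 in the control, a CPM ratio of 1.16 (1.14 to 1.19). LDHB (ENSG00000111716, chromosome 12, 21635342 to 21757857, minus strand), the heart-type subunit, had 5627 and 9862 counts. This gave 208 CPM (203 to 213) against 360 CPM (352 to 367), with a CPM ratio of 0.578 (0.560 to 0.598). In TPM, LDHA was at 754 and 565 and LDHB at 211 and 338, so LDHA made up 78.1% and 62.6% of the lactate dehydrogenase TPM. The summed TPM of both genes was 966 and 903. Of the exact 150-base stretches in LDHB transcripts of GENCODE 29, 24.2% also occur in the overlapping gene AC010197.2, and whether reads were divided between them was not tested.

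Ratios between related genes within a library do not depend on how libraries are scaled. Of 15 pairs, 14 had counts in both libraries, and SLC2A3 over SLC2A1 did not. The LDHB to LDHA count ratio was 0.273 in the library labelled HIPK2 shRNA and 0.548 in the control, so that the first was 0.497 times the second (0.479 to 0.517). The same quotient was 1.94 (1.77 to 2.12) for ENO2 over ENO1 and 1.55 (1.40 to 1.71) for ALDOC over ALDOA. The highest was 2.45 (2.07 to 2.91), for BNIP3L over BNIP3. These 4 pairs and CA12 over CA9, which rests on few counts and had an interval of 0.605 to 5.75, were the 5 pairs past 1.5-fold, and all 5 were past it on the same side in TPM. PFKP over PFKL was at 0.724 (0.694 to 0.756) and PFKM over PFKL at 0.715 (0.674 to 0.759). The intervals held 1 for the lactate transporters, with SLC16A3 over SLC16A1 at 0.987 (0.883 to 1.10), and for EPAS1 over HIF1A, at 0.965 (0.883 to 1.06). The pairs PDK3 over PDK1 and PFKFB4 over PFKFB3 lay on opposite sides of 1 in counts and TPM.

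**Figure D3:**
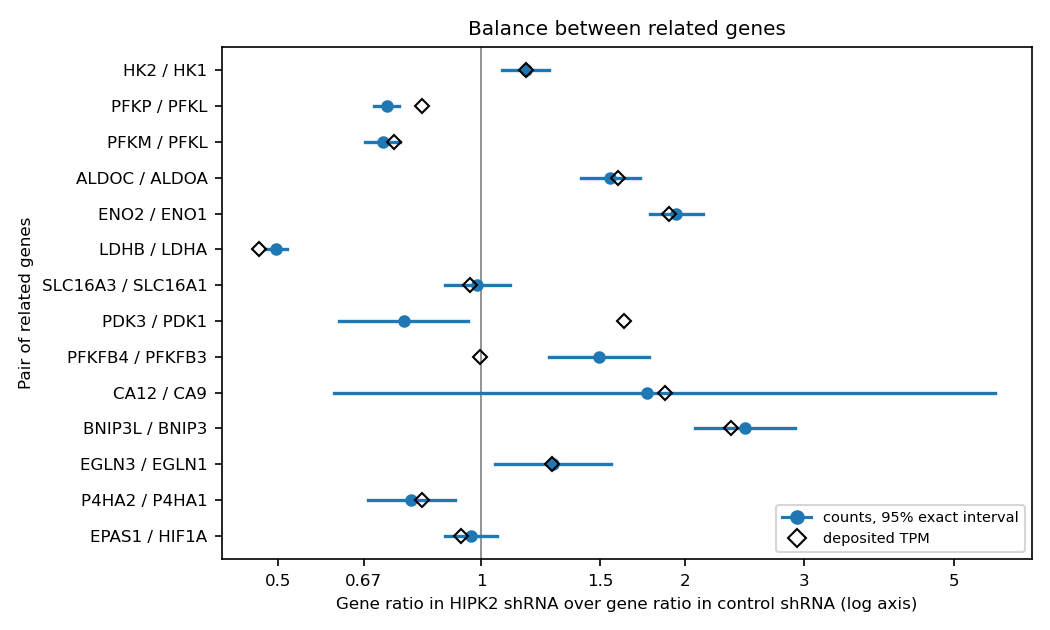
Ratio of 2 related genes in the library labelled HIPK2 shRNA over the same ratio in the control (log axis), for 14 pairs: blue circles with 95% exact intervals from counts, open diamonds from deposited TPM. LDHB over LDHA (0.497) and BNIP3L over BNIP3 (2.45) lie farthest from 1 on either side, and the diamonds of PDK3 over PDK1 and PFKFB4 over PFKFB3 lie on the other side of 1 from their circles.

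All 3 expressed transporters had ratios below 1 in both CPM and TPM, though none passed 1.5-fold, against 20.6% of all expressed genes in CPM. SLC2A1 (GLUT1), the main glucose importer of carcinoma cells, had 8020 counts in the library labelled HIPK2 shRNA and 9272 in the control, a CPM ratio of 0.877 (0.851 to 0.904). SLC16A1 (MCT1), which carries lactate in either direction, had 802 and 1148 counts, a ratio of 0.708 (0.646 to 0.776). SLC16A3 (MCT4), the HIF-induced lactate exporter, had 1681 and 2438 counts, a ratio of 0.699 (0.656 to 0.744). In TPM these were 129 and 145 for SLC2A1, 11.9 and 15.1 for SLC16A1 and 50.3 and 66.2 for SLC16A3. SLC2A3 (GLUT3) had 0 counts. The limit of 3 counts set for such a gene equals 0.111 CPM in the library labelled HIPK2 shRNA and 0.109 CPM in the control. The exact Poisson upper limits of SLC2A3 were slightly higher, at 0.136 and 0.134 CPM. Of its 50-base stretches 16.0% are shared with other genes, most with SLC2A14, which also had 0 counts in both libraries.

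Among the regulatory kinases, 3 of 4 members (PDK1, PFKFB3 and PFKFB4) had opposite signs in counts and TPM. Over all 38 expressed members 9 did (23.7%), against 12.2% of all expressed genes. The median log2 ratio of all expressed genes was 0.00023 in CPM but 0.077 in TPM, so 0 is not the centre in TPM. PFKFB3 (0.041) and PFKFB4 (0.031) were above 0 in TPM but below that median, as were PFKM, TPI1, EGLN1 and VHL. PFKP and PKM were above the median in TPM, and PDK1 was below 0. PDK1 (ENSG00000152256, chromosome 2, 172555373 to 172608669, plus strand), a HIF-induced kinase that inactivates pyruvate dehydrogenase, had 370 counts in the library labelled HIPK2 shRNA and 222 in the control. The CPM ratio was 1.69 (1.43 to 2.005), while TPM was 5.53 and 6.41, a ratio of 0.863. PFKFB3 (ENSG00000170525, chromosome 10, 6144934 to 6254644, plus strand), which makes the phosphofructokinase activator fructose 2,6-bisphosphate, had 819 and 1453 counts. That is a CPM ratio of 0.571 (0.524 to 0.623), while TPM was 19.3 and 18.7, a ratio of 1.03. The count divided by the deposited FPKM gives the transcript length that the authors' values imply, and its ratio between libraries was 2.099 for PDK1 and 0.595 for PFKFB3, after division by the median ratio of all expressed genes. These were the only 2 of 38 expressed members past 1.5-fold in implied length, against 4.93% of all expressed genes, and 33 members were within 10% of 1. For HIPK2 the ratio was 4.01. By construction, a gene's TPM ratio is its count ratio divided by this length ratio, apart from a factor common to all genes. PDK1 and PFKFB3 have 9 and 19 transcripts in GENCODE 29, from 558 to 14193 and from 244 to 4524 bases, and no direction is given for either gene. Being past 1.5-fold in CPM with the opposite sign in TPM occurred in 0.296% of all expressed genes. PDK3, a second kinase of pyruvate dehydrogenase, had 486 and 380 counts with a CPM ratio of 1.30 (1.13 to 1.49), and PFKFB4 had 341 and 405 counts with a ratio of 0.854 (0.737 to 0.988), or 1.02 in TPM.

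**Figure D4:**
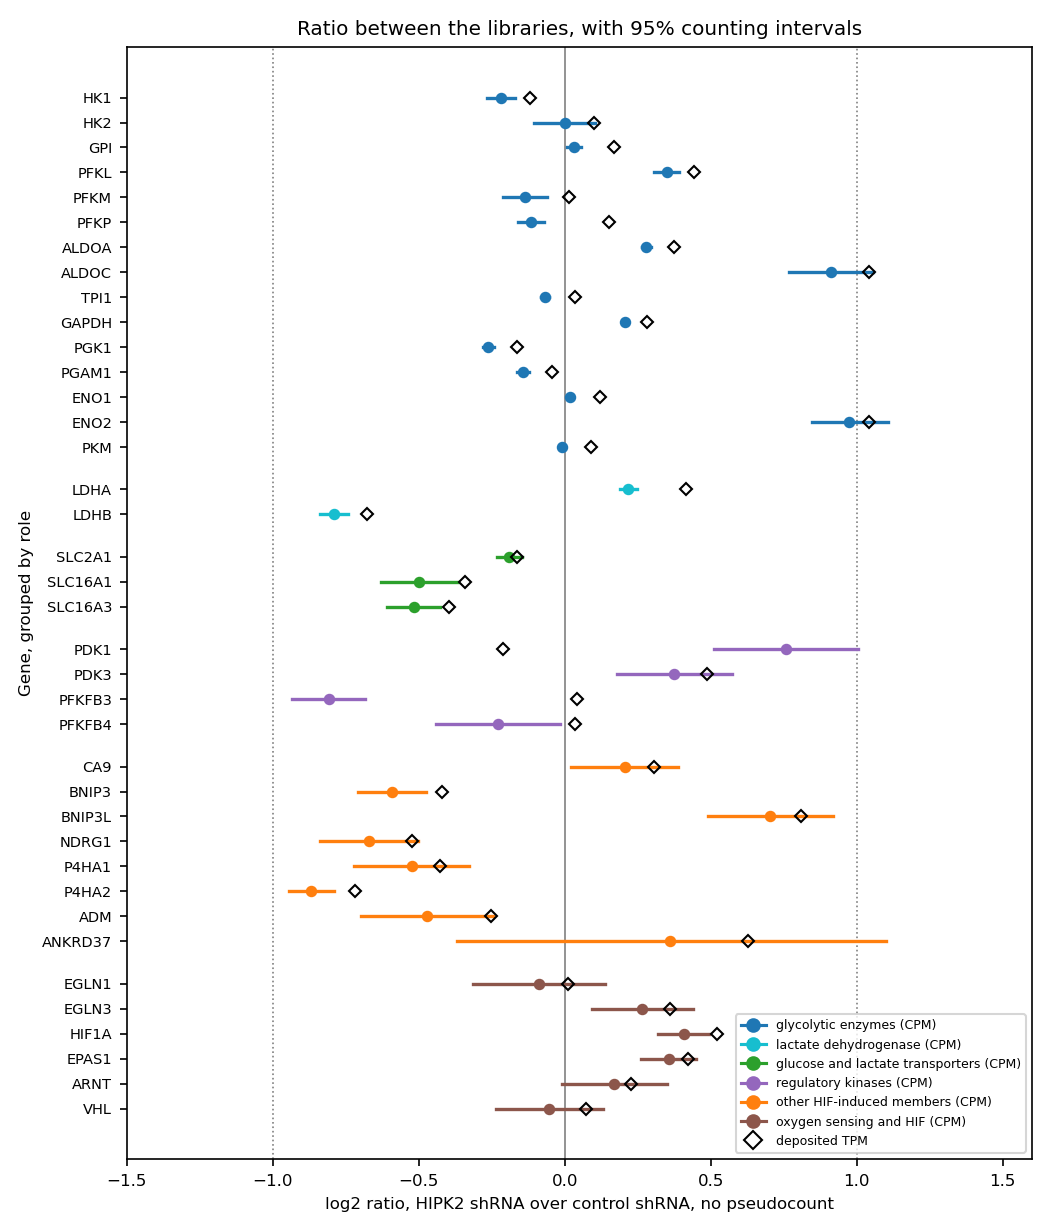
log2 of the CPM ratio without pseudocount, library labelled HIPK2 shRNA over control, for the 38 expressed members by role (coloured circles, lines are 95% counting intervals), with the TPM ratio as open diamonds and dotted lines at 2-fold. Of the 9 members whose diamond lies on the other side of 0 from the circle, PDK1 and PFKFB3 have the widest gaps, and all 3 transporters lie below 0 in both units.

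Of the 8 other HIF-induced genes that were expressed, 1 passed 1.5-fold higher (BNIP3L, 12.5%) and 2 lower (P4HA2 and NDRG1, 25%). Among all expressed genes these shares were 10.6% and 9.96%, and 8 genes are too few to set them apart. P4HA2 (ENSG00000072682, chromosome 5, 132191838 to 132295271, minus strand), a collagen prolyl 4-hydroxylase subunit, had 2058 counts in the library labelled HIPK2 shRNA and 3806 in the control. This gave 76.1 CPM (72.8 to 79.4) against 139 CPM (134 to 143), with a CPM ratio of 0.548 (0.519 to 0.579), the lowest of the members. P4HA1, the other catalytic subunit listed, had 358 and 522 counts and a ratio of 0.695 (0.606 to 0.797), and the summed TPM of both genes was 55.6 and 89.4. Ratios below 1 were also found for NDRG1, a stress-induced gene, at 0.629 (0.559 to 0.707) from 469 and 756 counts, and for BNIP3, a mitophagy receptor, at 0.664 (0.612 to 0.720) from 981 and 1498 counts. ADM, the vasodilator peptide adrenomedullin, was at 0.722 (0.617 to 0.844) from 277 and 389 counts. These 5 genes were below 1 in TPM as well, with ratios from 0.608 (P4HA2) to 0.839 (ADM).

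BNIP3L, the related mitophagy receptor, had 469 counts in the library labelled HIPK2 shRNA and 292 in the control, a CPM ratio of 1.63 (1.40 to 1.89) and a TPM ratio of 1.75. BNIP3 remained the more abundant of the pair, with 73.4% and 86.6% of their summed TPM. CA9, the carbonic anhydrase often used as a hypoxia marker, had 529 and 465 counts, or 18.2 and 14.7 TPM, with a CPM ratio of 1.15 (1.02 to 1.31). ANKRD37, a small ankyrin-repeat gene, had 38 and 30 counts and a ratio of 1.28 (0.775 to 2.15), which is within counting error. CA12, a related surface carbonic anhydrase, was under the limit for expressed genes in both libraries. Across all 8 expressed genes of this group, 3 were above 0 and 5 below, and the median log2 ratio was -0.46 in CPM and -0.31 in TPM. CA9 shares 38.5% of its exon bases with ARHGEF39 on the opposite strand and ANKRD37 35.2% with UFSP2, so without stranded counting the reads of these pairs cannot be told apart.

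The genes of oxygen sensing were all expressed and none passed 1.5-fold, against 20.6% of all expressed genes in CPM. HIF1A had 2479 counts in the library labelled HIPK2 shRNA and 1895 in the control, a CPM ratio of 1.33 (1.25 to 1.41), and EPAS1 (HIF-2 alpha) 2056 and 1628 counts, a ratio of 1.28 (1.20 to 1.37). Their TPM was 35.4 and 24.7 for HIF1A and 22.1 and 16.5 for EPAS1. ARNT, their partner, had 537 and 484 counts and a ratio of 1.12 (0.993 to 1.27). All 3 subunits were thus above 1 in both units, ARNT within counting error in CPM. Of the oxygen sensors, EGLN3, itself a HIF target, had 601 and 507 counts with a ratio of 1.20 (1.07 to 1.36). EGLN1, the main sensor, had 312 and 336 counts with a ratio of 0.941 (0.804 to 1.10), and VHL 480 and 505 counts with a ratio of 0.964 (0.849 to 1.09). EGLN1 and VHL were within counting error of 1 and lay just above it in TPM.

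Genes of the same pathways outside the 40 were described from 7 further lists. Among all expressed genes, 6.13% passed 2-fold in either direction in CPM. Of 9 expressed glycolysis enzymes (22 listed) and 10 expressed pentose phosphate genes (11 listed), 0 passed 2-fold, with median log2 ratios of -0.29 and -0.15. None of 12 expressed genes of gluconeogenesis and glycogen (18 listed) passed it either, with a median of -0.024. Of 14 expressed hexose and monocarboxylate transporters (24 listed), only SLC16A5 passed 2-fold, with 39 counts in the library labelled HIPK2 shRNA and 134 in the control, a CPM ratio of 0.295 (0.201 to 0.424). Pyruvate entry into mitochondria held 3 such genes among 12 expressed of 13. MPC1, a subunit of the mitochondrial pyruvate carrier, had 397 and 837 counts, a ratio of 0.481 (0.426 to 0.542), and its log2 ratio was -1.01 in CPM and -0.93 in TPM. PDPR, a regulatory subunit of pyruvate dehydrogenase phosphatase, had 283 and 1215 counts, a ratio of 0.236 (0.207 to 0.269). Its TPM ratio was 0.380 and its implied length ratio 0.665. PDPR has near-identical copies nearby that can exchange reads, and their part in its counts was not tested. PDP2, a catalytic subunit of the same enzyme, had 98 and 8 counts, a ratio of 12.4 (6.06 to 29.6), but a TPM ratio of only 1.65 and an implied length ratio of 8.08.

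The further HIF-induced genes held most of the genes past 2-fold. Of 27 expressed genes (30 listed), 5 fell past 2-fold and 1 was past it on the higher side, with the same 2 numbers in TPM, and the list median was -0.24 in CPM and -0.053 in TPM. VEGFA, the angiogenic factor, had 431 counts in the library labelled HIPK2 shRNA and 1887 in the control, and CITED2, which competes with HIF for its co-activators, had 280 and 1021. Their CPM ratios were 0.232 (0.208 to 0.257) and 0.278 (0.243 to 0.318). TMEM45A was at 0.289 (0.216 to 0.382) from 65 and 228 counts, and STC2, a secreted glycoprotein, at 0.390 (0.367 to 0.413) from 1553 and 4038 counts. Named after its values were seen, BHLHE40, a transcriptional repressor, had 850 counts in the library labelled HIPK2 shRNA and 417 in the control. It was the single gene past 2-fold higher, at a log2 ratio of 1.0004, on the limit. Among 12 expressed regulators of HIF (13 listed), ARNT2, a relative of ARNT, had 96 and 270 counts and a CPM ratio of 0.360 (0.283 to 0.457), and the other 11 stayed within 2-fold in CPM. The TPM ratio of ARNT2 was 0.385, also past 2-fold, from 0.790 and 2.05 TPM. With a pseudocount of 1 TPM, which is large at such levels, its log2 ratio was -0.77. CREBBP, a co-activator of HIF named after its values were seen, had 1400 and 1406 counts but 11.3 and 31.0 TPM, with an implied length ratio of 2.96. Thus 0 of 38 expressed members and 6 of 27 further HIF-induced genes passed 2-fold in TMM-scaled CPM, against 6.13% of all expressed genes. Members and lists were chosen with earlier results of these data known, so these numbers may reflect that choice. The difference between these lists was not tested.

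Some members share sequence with other genes, which limits what their counts mean. Over 10% of the exact 150-base stretches, the read length, also occur in transcripts of another gene for ALDOA (30.5%), PGAM1 (24.9%) and LDHB (24.2%). For 30 of the 40 members no such stretch does. PGAM4, a retrocopy of PGAM1 that is a further gene of the glycolysis list, had 877 counts in the library labelled HIPK2 shRNA and 922 in the control, and the part of PGAM1 reads in it was not tested. With stretches of 50 bases, TPI1 (12.6%) and SLC2A3 (16.0%) also exceeded 10%, while ENO2 (0.0216%) and ALDOC (0%) shared almost nothing with other transcripts. Over 10% of exon bases lie on an exon of the opposite strand for 5 members: CA9, ANKRD37, GAPDH (14.2%), ALDOA (13.3%) and ALDOC (10.1%).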

How the data were processed

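RNA was measured in 2 Cal-27 libraries, 1 per group, from total RNA (library kit by Gnomegen, paired reads of 150 bases, per the labels' protocols). FastQC and TopHat2 2.1.1 and the build GRCh38 (hg38) are named in the submitters' processing notes. The sources used here do not say which tool counted the reads, or its annotation and use of strand. Per the file headers, the authors deposited a whole-number count, a TPM and an FPKM per gene. The deposited counts are not normalized. The deposited TPM is corrected for transcript length by the authors and was used to compare levels between genes. The deposited FPKM was used only for the implied transcript length.

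Counts were turned into CPM. The TMM factors came from edgeR 4.0.16, run in R 4.3.3 (1.02 in the library labelled HIPK2 shRNA and 0.977 in the control). No test was run, since 1 library per group leaves no spread. A gene was called expressed where either library reached 1 CPM. The log2 ratio used a pseudocount of 1 CPM, or of 1 TPM for the deposited TPM, which understates low genes. TPM ratios not given as log2 have no pseudocount. Past 2-fold is a rule of size at a log2 ratio of 1. Ratios printed with brackets have no pseudocount and carry Clopper-Pearson intervals given the sum of both counts. Levels carry exact Poisson intervals, and ratios between related genes carry exact conditional odds ratio intervals (scipy 1.17.1). Intervals cover counting error only. The labels name no molecular identifiers, so copies of 1 molecule may be counted again. The upper limit for a gene at 0 was set at 3 counts. The rule of size and the intervals were tried on simulated Poisson counts scaled by their totals, not by TMM. These counts held no spread between cultures, so the trial says nothing about such spread. Shared stretches and exon overlap came from GENCODE 29, in which 27 of the 40 members have the same start, end and strand. Positions are those of the files, and promoters are from RefSeq on GRCh38.p14.

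The members and lists were chosen with earlier results of these data known. The named genes are all members, HIPK2 and up to 4 genes past 2-fold from each further list, by size. BHLHE40, CREBBP, PGAM4, SLC2A14 and the markers KRT14, CDH1, KRT5, SFN and CDH5 fall outside this rule and were named after their values were seen. Not every gene of the further lists is reported here. The promoters shown were chosen after their ratios were seen. The alternatives tried were other pseudocounts, filters, scalings, thresholds and the deposited TPM.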

Additional observations from a re-analysis of the deposited data

How the results depend on the processing

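No paired analysis was possible because there is 1 library on either side, and for the same reason none could be left out. The count of 0 members past 2-fold higher became 1 with total count scaling and 1 with upper-quartile scaling (ENO2 in both). It was 1 in TPM with a pseudocount of 1 TPM (ALDOC), where ENO2 was at a log2 ratio of 0.998. At a threshold of 1.5-fold, 4 members were higher and 4 lower. This became 2 and 3 with a pseudocount of 5 CPM (PDK1, BNIP3L and NDRG1 lost), 4 and 3 with total count or upper-quartile scaling (NDRG1 lost), and 3 and 2 in TPM (PDK1, PFKFB3 and NDRG1 lost). With a pseudocount of 0.1 CPM or median-of-ratios factors it was 4 and 5 (BNIP3 gained). The count of 0 past 2-fold lower was the same under the 8 other settings tried. The median log2 ratio of the members, -0.030, was 0.077 in TPM, where the median of all expressed genes was also 0.077. Under the 7 other settings with a median, that of the members ranged from -0.051 (filter of 10 CPM) to 0.040 (upper-quartile scaling). In these same settings the median of all expressed genes was -0.046 and 0.065. In TPM 9 of 38 members changed sign, against 12.2% of all expressed genes, with PDK1 at -0.18 and PFKFB3 at 0.041, and in upper-quartile scaling 3 did so (TPI1, PKM and VHL). Among the further genes, ARNT2 (-0.80), SLC16A5 (-0.62), PDP2 (0.70), TMEM45A (-0.85) and MPC1 (-0.85) were within 2-fold with a pseudocount of 5 CPM. MPC1 was also within it under total count (-0.95) and upper-quartile (-0.94) scaling. The implied length differs between libraries for PDK1 and PFKFB3, and why it does so was not tested. Depth limits the low members: a single count equals 0.0370 CPM in the library labelled HIPK2 shRNA and 0.0365 CPM in the control.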
